A study of Homo sapiens with 95 samples.

Results

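The ligand NRG1 (neuregulin 1), the ERBB family receptors EGFR, ERBB2, ERBB3 and ERBB4, and the receptor inhibitor ERRFI1 were followed in AALE cells, an immortalized human bronchial epithelial cell line. These 6 genes were picked by symbol from the 27978 genes listed in every count file. The libraries were made by sparse full length sequencing (SFL), in which many barcoded samples are pooled and sequenced at low depth. There were 8 derived lines. NRF2 (the gene NFE2L2), FGFR1, NRG1 and PIK3CA were overexpressed, and their control was a line carrying an empty vector with the reporter HcRed. FAT1 and CDKN2A were knocked out by CRISPR, and their control (GFP) was a line given the pSpCas9-EGFP plasmid PX458 with no guide RNA. Each line received cigarette smoke condensate (CSC, 24 μg/ml), benzo[a]pyrene (BaP, 173 μM), the tobacco nitrosamine NNK (490 μM) or the solvent DMSO, in 3 libraries per combination and in 2 for FGFR1 with CSC, which gave 95 libraries in 32 groups. The study calls the libraries of a group biological replicates, while the labels do not say whether they came from separate cultures, nor whether a line was a clone or a pool of cells, so the p-values measure the spread between these libraries.

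The ERBB receptors are tyrosine kinases that work in pairs. EGFR and ERBB4 bind ligand and signal, ERBB2 has no known ligand and serves as the preferred partner, and ERBB3 binds neuregulins but has little kinase activity of its own. Neuregulin bound to ERBB3 drives its pairing with ERBB2 and activates PI3K and ERK signalling, and in airway epithelium this pair takes part in repair after injury. ERRFI1 (MIG6) is a cytoplasmic protein that is induced by receptor signalling, binds the kinase domain and inhibits it.

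The library totals ran from 287446 to 2116383 assigned reads, so that 3 reads corresponded to between 1.42 and 10.4 CPM (counts scaled to the library total). All 6 perturbed genes moved as labelled when the line was compared with its control, with log2 differences from -1.82 for FAT1 and -1.16 for CDKN2A in their knockouts to 8.23 for NRG1 in its own line. The 8 bronchial basal markers had reads in all 95 libraries. Of 10 markers of other lung cells 8 had a median of 0 CPM, while the fibroblast collagen COL1A1 had a median of 25.2 CPM and the neuroendocrine marker CHGA 1.28 CPM. In these bulk libraries fewer cells of a kind and less RNA per cell cannot be told apart. On the build GRCh37 (hg19) NRG1 lies at chr8:31496738-32713184 on the plus strand, EGFR at chr7:55086710-55279321 on the plus strand, ERBB2 at chr17:37844167-37886679 on the plus strand, ERBB3 at chr12:56470583-56497289 on the plus strand, ERBB4 at chr2:212240442-213403565 on the minus strand and ERRFI1 at chr1:8064464-8086369 on the minus strand.

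The members differed widely in level. Set per kilobase of merged exons, the median level was 42.6 CPM per kb for EGFR, 10.6 for ERBB2 and 3.87 for ERBB3, and this order with ERBB4 last held in 95 of 95 libraries. ERRFI1 stood at 27.9 CPM per kb, between EGFR and ERBB2. NRG1 in the 83 libraries of the other lines stood at 1.004 CPM per kb. The merged exons span 21.4 kb for NRG1, 15.9 kb for EGFR and 4.18 kb for ERRFI1. They come from GENCODE, while the study counted reads in RefSeq genes, so levels per kb compare different genes only roughly. ERBB4 was close to absent: 16 reads were assigned to it in all, spread over 14 of 95 libraries with at most 2 reads in any, and it did not reach the mean count above 1 that a test required. Of those 14 libraries 6 belonged to the NRG1 line, which has 12, each with 1 read. In a single library 1 read is under the limit of 3 reads that a count of 0 allows. That limit does not cover a difference over several libraries, which was not tested. The antisense gene EGFR-AS1 lies within EGFR on the other strand and had a mean of 9.60 reads against 627 for EGFR. Whether the counting used strand is not given in the sources used here, so reads of this pair cannot be told apart.

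Promoters are shown for ERRFI1 and EGFR, whose calls as higher with CSC and NNK over the lines also held after a correction for GC content and gene length. ERBB2, whose calls with CSC and NNK ended under that correction, is not shown, and its window holds neither of the motifs below. Each window holds the 250 bases before a start annotated by RefSeq (build GRCh38.p14), and capitals mark TGACTCA, the AP-1 motif, read on either strand. The core motif GCGTG of the aryl hydrocarbon receptor, which binds compounds such as BaP, was searched on both strands as well and has no match in these 3 windows. Of 35116 windows of this length for all genes 32.2% held GCGTG and 4.2% held TGACTCA. A match or its lack describes these letters only. The windows lie at chr1:8026310-8026559 on the minus strand for ERRFI1, at chr7:55018767-55019016 on the plus strand for the upstream start of EGFR, and at chr7:55109589-55109838 on the plus strand for an internal start of EGFR, where the AP-1 letters matched at 2 places that do not overlap.
ERRFI1: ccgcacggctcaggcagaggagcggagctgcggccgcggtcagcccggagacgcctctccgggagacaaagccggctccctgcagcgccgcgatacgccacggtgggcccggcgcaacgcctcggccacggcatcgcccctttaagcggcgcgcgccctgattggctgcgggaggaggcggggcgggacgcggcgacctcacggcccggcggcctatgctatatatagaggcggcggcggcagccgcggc
EGFR, upstream start: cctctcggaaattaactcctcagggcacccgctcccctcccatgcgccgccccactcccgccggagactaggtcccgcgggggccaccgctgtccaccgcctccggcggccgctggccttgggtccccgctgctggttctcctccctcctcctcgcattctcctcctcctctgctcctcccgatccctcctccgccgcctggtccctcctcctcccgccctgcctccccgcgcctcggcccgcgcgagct
EGFR, internal start: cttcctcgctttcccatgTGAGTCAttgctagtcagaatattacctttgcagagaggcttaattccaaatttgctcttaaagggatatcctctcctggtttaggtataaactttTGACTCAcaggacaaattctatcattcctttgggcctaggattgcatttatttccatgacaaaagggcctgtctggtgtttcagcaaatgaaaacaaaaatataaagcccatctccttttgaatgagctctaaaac

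The ligand NRG1 was read at 4655 to 6929 CPM in the 12 libraries of the NRG1 line, with a median of 5756 CPM. In the 12 HcRed libraries it was read at 6.19 to 33.2 CPM, with a median of 17.6 CPM. The groups did not overlap, and the difference in log2 level was 8.23 (SE 0.13, limma-voom adjusted p = 1.05e-55). The counts do not separate the introduced gene from the cell's own. No gene besides NRG1 stood 4-fold above every other line there, and the next highest ratio was 3.37. Within the NRG1 line its reads were lower with the chemicals by limma-voom, from 6599 to 6929 CPM with DMSO to 4655 to 5077 CPM with CSC. Those libraries did not overlap, and the log2 difference was -0.44 (SE 0.02, limma-voom adjusted p = 2.51e-38). It was -0.34 (SE 0.04, limma-voom adjusted p = 4.59e-07) with BaP and -0.15 (SE 0.03, limma-voom adjusted p = 3.06e-06) with NNK. The call with NNK ended with DESeq2 (adjusted p = 0.24), edgeR (0.224) and the fit of all 95 libraries (0.109). Of all genes 13.9%, 7.81% and 6.43% passed in these 3 comparisons of the NRG1 line.

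**Figure D1:**
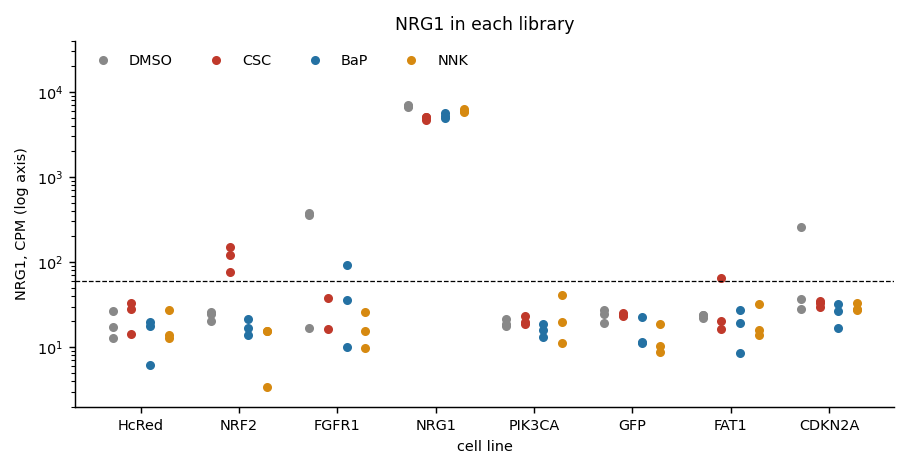
NRG1 in each of the 95 libraries, in CPM on a log axis, by line (columns) and treatment (colours), with a dashed line at 60 CPM. The NRG1 line sits at 4655 to 6929 CPM, 75 of the other 83 libraries sit at 3.35 to 41.3 CPM, and 8 lie between 65.6 and 373 CPM.

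Outside its own line NRG1 was low in most libraries and high in a few. In 75 of 83 libraries it lay between 3.35 and 41.3 CPM, with a median of 19.8 CPM. In 8 libraries, chosen after their values were seen as those above 60 CPM, it lay between 65.6 and 373 CPM, with a median of 135 CPM. In the FGFR1 line with DMSO the 3 libraries had 16.6, 373 and 355 CPM, and in CDKN2A with DMSO 28.2, 36.9 and 259 CPM. In NRF2 with CSC they had 76.9, 121 and 149.6 CPM, in FGFR1 with BaP 36.1, 92.8 and 10.1 CPM and in FAT1 with CSC 65.6, 20.4 and 16.5 CPM. NRF2 with CSC was the only group in which all 3 libraries were above 60 CPM. Libraries of the NRG1 line averaged 5751 CPM, and the origin of the NRG1 reads in the 8 libraries was not tested.

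The calls of NRG1 in NRF2 and FGFR1 changed with the test and with the libraries kept. Over the treatments NRG1 differed from the control by 1.20 (SE 0.21, limma-voom adjusted p = 5.22e-06) in NRF2, by 1.54 (SE 0.37, limma-voom adjusted p = 0.00176) in FGFR1 and by 1.04 (SE 0.24, limma-voom adjusted p = 0.000126) in CDKN2A. In NRF2 the difference was 2.31 (adjusted p = 2.62e-14) with CSC alone. With all libraries kept, DESeq2 gave 0.60 (adjusted p = 0.204) in NRF2 and 1.42 (0.0547) in FGFR1. The fit of all 95 libraries gave 0.52 (0.481) and 1.11 (0.0687), so that all 4 ended the call. Leaving out the 8 libraries, an alternative added after the data were seen, lowers NRG1 by construction and drops all 3 NRF2 libraries with CSC. The difference then was 0.05 (adjusted p = 0.92) in NRF2 and 0.13 (adjusted p = 0.788) in FGFR1. In CDKN2A it was 0.65 (SE 0.15, adjusted p = 0.000138) without them. With all libraries the medians were 31.0 CPM in CDKN2A and 20.8 CPM in GFP, the ranges overlapped, and the mean was higher in 4 of 4 treatments. In PIK3CA, GFP and FAT1 the log2 differences were -0.03, 0.06 and 0.20, none past the threshold of an adjusted p under 0.05.

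The receptors and ERRFI1 changed in different lines and in different directions. Over the 4 treatments, CDKN2A against GFP moved all 5 members that could be tested, where 57.6% of all genes passed the threshold. GFP against HcRed moved 4 of 5 (all genes, 45%), NRG1 against HcRed 3 of 5 with the introduced gene counted (all genes, 10.8%), and PIK3CA against HcRed 3 of 5 (all genes, 27.8%). FGFR1 and FAT1 moved 2 of 5 each (all genes, 13.5% and 48.9%). By limma-voom NRF2 moved NRG1 alone (all genes, 21.6%), while EGFR passed there under some alternatives, given below. The comparisons with HcRed share its 12 libraries, and GFP is the control of both knockouts, so their values are given side by side.

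**Figure D2:**
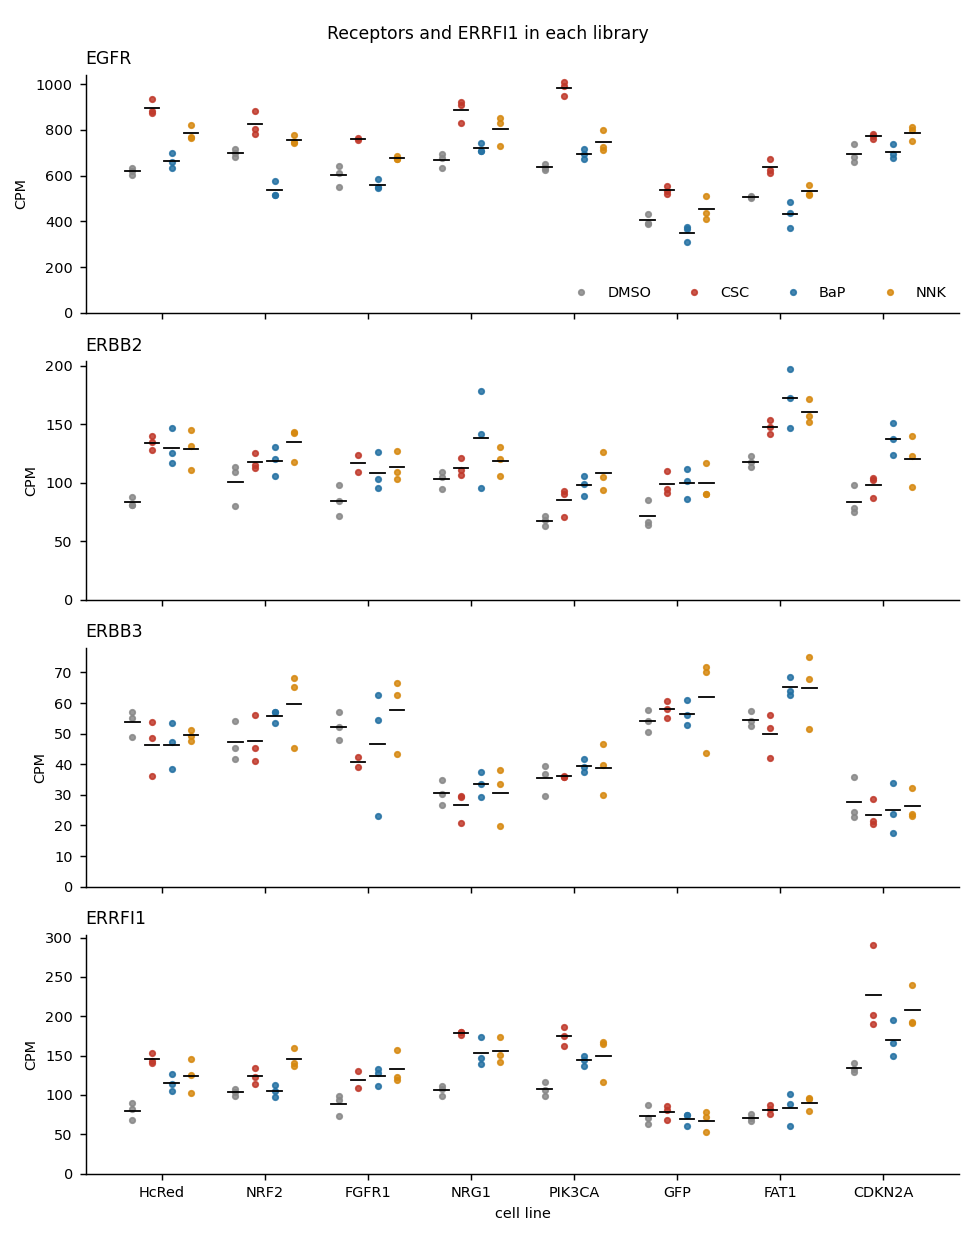
EGFR, ERBB2, ERBB3 and ERRFI1 in each of the 95 libraries, in CPM, by line and treatment (colours), with a black bar at the mean of each group. The GFP line lies at 312 to 554 CPM of EGFR and 52.5 to 86.8 CPM of ERRFI1, and ERBB3 lies at 19.7 to 38.2 CPM in the NRG1 line and 17.4 to 35.9 CPM in CDKN2A.

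EGFR, the receptor of EGF, amphiregulin and related ligands, had its lowest median in the GFP control line. It lay at 312 to 554 CPM in GFP (median 422) and at 605 to 934 CPM in HcRed (median 731), with no overlap and a log2 difference of -0.76 (SE 0.04, limma-voom adjusted p = 9.51e-32). It passed as lower in 4 of 4 treatments tested alone, where 12.5% to 22% of all genes passed. Against GFP, EGFR was higher in CDKN2A, at 658 to 813 CPM (median 746), again with no overlap and a log2 difference of 0.75 (SE 0.04, limma-voom adjusted p = 1.70e-25). In FAT1 it lay at 369 to 671 CPM (median 513), which overlapped GFP, and the difference was 0.30 (SE 0.04, limma-voom adjusted p = 5.84e-10). Both passed in 4 of 4 treatments alone, of which DESeq2 kept 2 in FAT1. Of all genes 28.1% to 37.2% passed in these single treatments in CDKN2A and 17.2% to 26.3% in FAT1. The median in CDKN2A lay beside that of HcRed, a pair the design does not compare. In FGFR1 EGFR lay at 547 to 766 CPM (median 642), overlapping HcRed, with a difference of -0.20 (SE 0.03, limma-voom adjusted p = 1.00e-05). In the NRG1 line EGFR had a median of 737 CPM and differed by 0.07 (95% interval 0.00 to 0.14, limma-voom adjusted p = 0.203), and in PIK3CA by 0.04 (interval -0.03 to 0.10, adjusted p = 0.44). In NRF2 EGFR differed by -0.09 (limma-voom adjusted p = 0.0894), which did not pass. It passed as lower with the GC and length correction (-0.10, adjusted p = 0.036) and the fit of all 95 libraries (-0.08, 0.034). Of the 4 treatments alone, EGFR passed as lower in NRF2 with BaP (-0.31, limma-voom adjusted p = 0.00176, all genes 7.25%).

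ERBB2, the partner receptor without a ligand, had its highest median in FAT1. It lay at 114 to 197 CPM there (median 149.9) and at 63.6 to 117 CPM in GFP (median 91.1), with a slight overlap. The log2 difference was 0.70 (SE 0.07, limma-voom adjusted p = 3.33e-14), and it passed in 4 of 4 treatments alone, at 0.62 to 0.75 (all genes, 17.2% to 26.3%). With DMSO alone the 3 FAT1 libraries were at 117, 122 and 114 CPM and the 3 GFP libraries at 85.1, 66.3 and 63.6 CPM. ERBB2 was lower in PIK3CA, with a median of 92.1 CPM against 127 CPM in HcRed and a log2 difference of -0.41 (SE 0.07, limma-voom adjusted p = 2.02e-06). In GFP against HcRed the difference was -0.36 (SE 0.07, limma-voom adjusted p = 1.18e-05), and for both pairs the ranges overlapped. Each pair passed in 1 of 4 treatments alone, with CSC (all genes, 10.3% in PIK3CA and 22% in GFP). The call in GFP with CSC ended with DESeq2 (adjusted p = 0.0502) and the GC and length correction (0.0527). In CDKN2A the difference was 0.25 (SE 0.08, limma-voom adjusted p = 0.00444), a call that ended after correction for GC content and gene length (0.09, adjusted p = 0.33). ERBB2 passed there in 1 of 4 treatments alone. In the NRG1 line ERBB2 differed by -0.01 (interval -0.16 to 0.15, limma-voom adjusted p = 0.966), and no treatment alone passed.

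ERBB3, the neuregulin receptor with little kinase activity, was lower in CDKN2A, NRG1 and PIK3CA than in their controls. In CDKN2A it lay at 17.4 to 35.9 CPM (median 23.9) and in GFP at 43.8 to 71.6 CPM (median 56.8), with no overlap. The log2 difference was -1.20 (SE 0.11, limma-voom adjusted p = 1.35e-14), and it passed in 4 of 4 treatments alone, at -1.40 to -1.02 (all genes, 28.1% to 37.2%). In the NRG1 line ERBB3 lay at 19.7 to 38.2 CPM (median 29.9) against 36.2 to 57.0 CPM in HcRed (median 49.1). These ranges overlapped slightly, the difference was -0.68 (SE 0.11, limma-voom adjusted p = 8.34e-06), and the mean was lower in 4 of 4 treatments. With DMSO the NRG1 line had 35.0, 30.4 and 26.6 CPM and HcRed 55.1, 49.0 and 57.0 CPM, and the difference was -0.79 (SE 0.20, limma-voom adjusted p = 0.0108). This call ended with DESeq2 (adjusted p = 0.307) and held in 2 of 6 fits that each left out 1 library. The treatments alone gave -0.81 (SE 0.24, limma-voom adjusted p = 0.0492) with CSC, which passed, and -0.43 (adjusted p = 0.425) with BaP and -0.77 (adjusted p = 0.0758) with NNK, which did not. The call with CSC ended with DESeq2 (adjusted p = 0.577), its size factors (0.055), the GC and length correction (0.0859), the fit of all 95 libraries (0.0547), no filter on low counts (0.0768) and the replicate block (0.0948), and it held in 1 of 6 fits that each left out 1 library. Of all genes 2.04% passed between these lines with DMSO and 2.31% with CSC. In PIK3CA ERBB3 had a median of 37.1 CPM and a difference of -0.39 (SE 0.10, limma-voom adjusted p = 0.00123). It passed there in 1 of 4 treatments alone, with DMSO (-0.67, limma-voom adjusted p = 0.0105, all genes 8.6%), and DESeq2 ended that call (adjusted p = 0.192). In GFP against HcRed the difference was 0.24 (SE 0.09, limma-voom adjusted p = 0.0259), a call that was lost in 2 of 24 fits that each left out 1 library. ERBB3 rested on 7 to 97 reads per library.

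ERRFI1, the inhibitor that receptor signalling induces, had its highest median in CDKN2A and its lowest in GFP. It lay at 129 to 291 CPM in CDKN2A (median 191) and at 52.5 to 86.8 CPM in GFP (median 72.8), with no overlap. The log2 difference was 1.26 (SE 0.09, limma-voom adjusted p = 4.60e-21), with a call in 4 of 4 treatments alone (all genes, 28.1% to 37.2%). GFP itself differed from HcRed, which lay at 67.7 to 153 CPM (median 119.6) and overlapped it, by -0.64 (SE 0.08, limma-voom adjusted p = 2.57e-10). That difference was -0.13 with DMSO, where it did not pass (adjusted p = 0.601), and -0.87, -0.72 and -0.81 with CSC, BaP and NNK, where it did (all genes, 22%, 15% and 12.5%). ERRFI1 was higher in the NRG1 line, at 98.8 to 180.3 CPM (median 148), with a difference of 0.37 (SE 0.07, limma-voom adjusted p = 2.27e-05). In PIK3CA it lay at 98.8 to 186 CPM (median 147), with a difference of 0.27 (SE 0.06, limma-voom adjusted p = 0.000605), and both ranges overlapped that of HcRed. ERRFI1 passed in PIK3CA in 1 of 4 treatments alone, with DMSO (0.40, limma-voom adjusted p = 0.0471, all genes 8.6%). This call ended with DESeq2 (0.35), its size factors (0.0542), the fit of all 95 libraries (0.0696), no filter on low counts (0.0769) and the replicate block (0.0541). In the NRG1 line the difference was 0.33 to 0.42 in each treatment but passed in 0 of 4 alone, where 2.04%, 2.31%, 1.52% and 1.85% of all genes passed with DMSO, CSC, BaP and NNK. Over all 28 comparisons of lines within a treatment that share ran from 1.42% to 37.2%. In NRF2, FGFR1 and FAT1 the differences of ERRFI1 were 0.02, 0.00 and 0.13, none past the threshold, although FAT1 passed after the GC and length correction (0.21, adjusted p = 0.025).

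**Figure D3:**
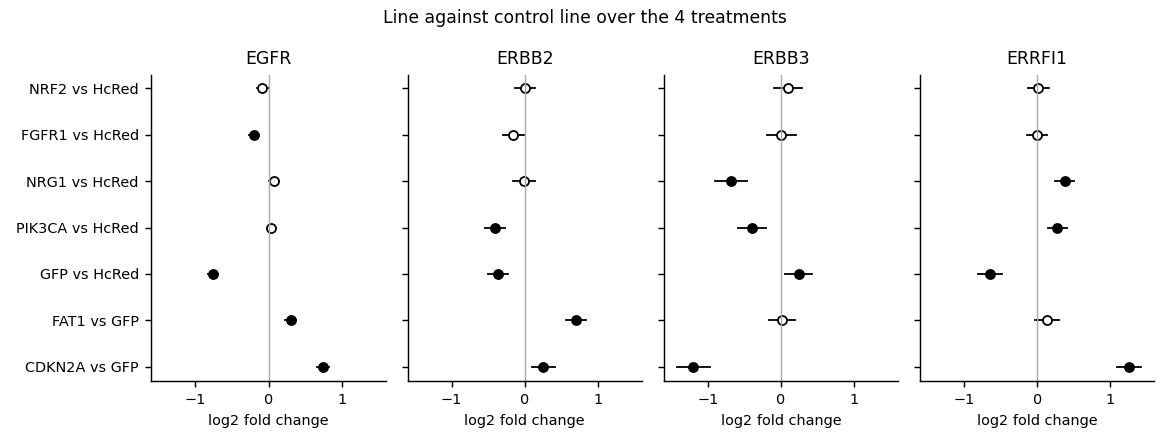
Log2 fold change of EGFR, ERBB2, ERBB3 and ERRFI1 in each line against its control line over the 4 treatments, with 95% intervals from limma-voom, where filled points passed an adjusted p under 0.05. ERBB3 lies at -1.20 in CDKN2A and -0.68 in NRG1, and ERRFI1 at 1.26 and 0.37 in the same lines.

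By limma-voom EGFR (CSC and NNK), ERBB2 and ERRFI1 were higher with the chemicals, while ERBB3 passed with none of them. After the GC and length correction ERBB2 kept its call only with BaP, and ERBB3 passed as lower with CSC. Over the 8 lines CSC moved 4 of 5 tested members (all genes, 55.6%), BaP 3 of 5 (all genes, 51.4%) and NNK 4 of 5 (all genes, 51.7%), each count with NRG1 included. The 3 comparisons share their 24 DMSO libraries. Within single lines, where 4.72% to 25% of all genes passed over the 24 comparisons, ERBB3 passed in 0 of 24 by limma-voom, edgeR or DESeq2, and 0 of 24 had an unadjusted limma-voom p under 0.05.

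EGFR rose with CSC in 8 of 8 lines by limma-voom, of which DESeq2 kept 6 (not NRF2 and CDKN2A). It lay at 389 to 739.7 CPM in the 24 DMSO libraries (median 634) and at 521 to 1007 CPM in the 23 CSC libraries (median 783), and these pooled ranges overlapped. The log2 difference was 0.39 (SE 0.03, limma-voom adjusted p = 8.07e-25), and by line it ran from 0.20 in CDKN2A to 0.61 in PIK3CA. In PIK3CA the DMSO libraries were at 633, 652 and 625 CPM and the CSC libraries at 1007, 948 and 990.5 CPM, with no overlap (all genes, 22.6%). With NNK the difference was 0.20 (SE 0.02, limma-voom adjusted p = 4.62e-12), with a call in 4 of 8 lines. Of these 4 DESeq2 ended those in NRG1, PIK3CA and CDKN2A, and the GC and length correction those in PIK3CA and CDKN2A, and edgeR that in PIK3CA (adjusted p = 0.0515). With BaP it was -0.03 (95% interval -0.09 to 0.02, adjusted p = 0.344) over the lines, and the fit of all 95 libraries passed it as lower (-0.06, adjusted p = 0.0382). Within single lines the difference with BaP was above 0 in 4 of 8, and EGFR passed as lower in 1, which was NRF2. There DMSO gave 682, 718 and 701 CPM and BaP 575, 516 and 515 CPM, with a difference of -0.38 (SE 0.06, limma-voom adjusted p = 1.44e-06) (all genes, 8.51%).

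ERBB2 was higher with all 3 chemicals. Its median was 84.5 CPM with DMSO and 111, 122 and 122 CPM with CSC, BaP and NNK, and its mean was higher in 8 of 8 lines with each. The log2 differences were 0.36 (SE 0.05, limma-voom adjusted p = 3.66e-10) with CSC, 0.46 (SE 0.06, limma-voom adjusted p = 3.04e-11) with BaP and 0.49 (SE 0.05, limma-voom adjusted p = 4.61e-14) with NNK. They passed in 4, 5 and 6 of 8 lines alone, and of these 15 calls DESeq2 kept 5. Base composition moved with these results. The exons of ERBB2 hold 57.6% G or C, and the median over the genes higher with CSC, BaP and NNK was 57.2%, 57.8% and 57.8%, against 41.0%, 40.8% and 40.4% over those lower. After a correction for GC content and length the differences of ERBB2 were 0.03 (adjusted p = 0.661), 0.13 (adjusted p = 0.0489) and 0.13 (adjusted p = 0.0727), so that of the 3 calls the one with BaP remained. The correction ended all 15 calls of ERBB2 within single lines.

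ERBB3 lay at 22.9 to 57.6 CPM with DMSO (median 48.4), and its medians with CSC, BaP and NNK were 41.1, 50.0 and 47.1 CPM. The log2 differences were -0.10 (95% interval -0.23 to 0.02), 0.07 (interval -0.07 to 0.20) and 0.12 (interval -0.02 to 0.26), with limma-voom adjusted p of 0.167, 0.449 and 0.168. After the GC and length correction ERBB3 passed as lower with CSC (-0.20, SE 0.06, adjusted p = 0.00942).

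ERRFI1 rose with all 3 chemicals. It lay at 63.4 to 141 CPM with DMSO (median 98.5), and its medians were 140.2 CPM with CSC, 121 CPM with BaP and 138 CPM with NNK. The log2 differences were 0.54 (SE 0.05, limma-voom adjusted p = 1.08e-15), 0.35 (SE 0.05, limma-voom adjusted p = 5.61e-09) and 0.47 (SE 0.05, limma-voom adjusted p = 2.93e-13). ERRFI1 passed as higher in 5, 5 and 6 of 8 lines alone, never in GFP or FAT1, and of these 16 calls DESeq2 kept 6. In the NRG1 line DMSO gave 98.8, 108 and 112 CPM and CSC 176, 180.2 and 180.3 CPM, with no overlap and a difference of 0.79 (SE 0.12, limma-voom adjusted p = 2.66e-07). In GFP the same pair gave 70.6, 63.4 and 86.8 CPM and 67.6, 85.5 and 80.3 CPM, which overlapped, with a difference of 0.07 (SE 0.14, limma-voom adjusted p = 0.748).

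**Figure D4:**
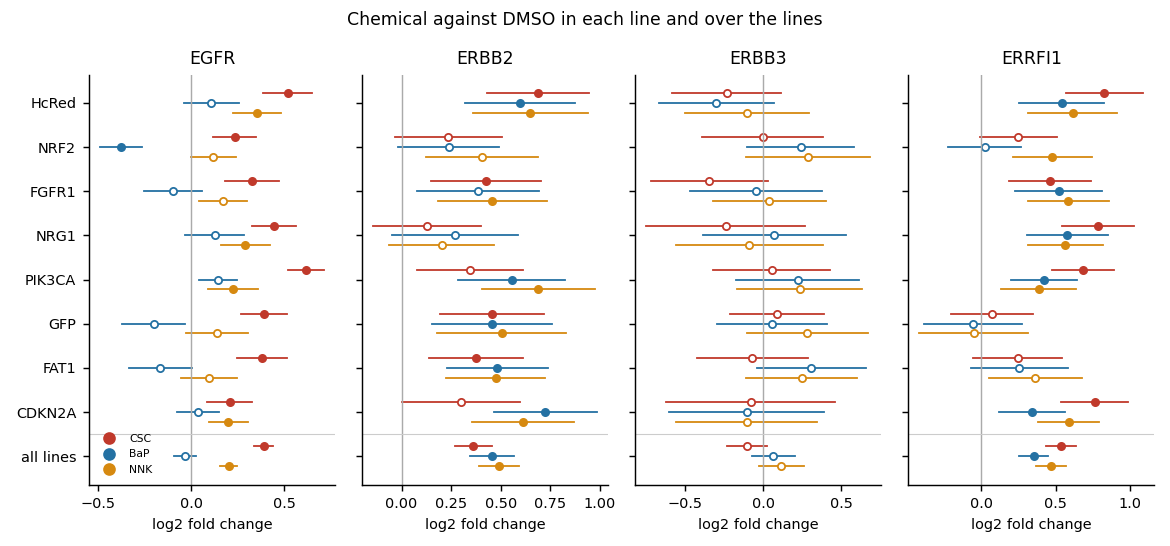
Log2 fold change of EGFR, ERBB2, ERBB3 and ERRFI1 with CSC, BaP and NNK against DMSO in each line (3 against 3 libraries, 2 for FGFR1 with CSC) and over all lines, with 95% intervals from limma-voom, where filled points passed an adjusted p under 0.05. EGFR with CSC is filled in 8 of 8 lines and ERBB3 in 0 of 24 comparisons, and ERRFI1 in GFP lies at 0.07, -0.05 and -0.05 with CSC, BaP and NNK.

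For NRG1 the comparison over lines mixes the introduced and the cell's own gene. It gave log2 differences of -0.45 (SE 0.07, limma-voom adjusted p = 1.45e-07) with CSC, -0.35 (SE 0.07, limma-voom adjusted p = 4.73e-06) with BaP and -0.19 (SE 0.05, limma-voom adjusted p = 0.00198) with NNK. The call with CSC ended with DESeq2 (-0.10, adjusted p = 0.795) and the fit of all 95 libraries (-0.08, 0.801), and the call with NNK after the GC and length correction (-0.15, 0.0632). Without the NRG1 line they were -0.24 (adjusted p = 0.478), -0.92 (adjusted p = 0.00577) and -1.25 (adjusted p = 0.000115). Without that line and the 8 libraries with high NRG1 they were 0.10 (adjusted p = 0.512), -0.36 (adjusted p = 0.0103) and -0.35 (adjusted p = 0.0244).

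The response to a chemical was compared between the 8 lines with an F test of the chemical-by-line terms. For CSC 2 of 5 members passed, EGFR (limma-voom adjusted p = 0.00095) and ERRFI1 (adjusted p = 0.0264), where 1.39% of all genes passed. NRG1 did not pass for CSC by limma-voom (adjusted p = 0.295) but did with edgeR (1.41e-12) and DESeq2 (0.00653), and by limma-voom without FGFR1 with DMSO replicate 1 (1.04e-08). For BaP EGFR alone passed (adjusted p = 0.000157, all genes 0.368%). For NNK 0 of 5 passed by limma-voom, where 0.195% of all genes did and 0 of 5 members had an unadjusted p under 0.05, while edgeR called NRG1 alone (adjusted p = 1.002e-10) and DESeq2 called 0. ERBB2 and ERBB3 passed for no chemical.

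Genes around the receptors were read from 5 lists, which hold 56 genes in all and were chosen with earlier results of these data known. Of 12 tested genes of ERK feedback and targets, which are known to respond to signalling downstream of these receptors, 12 were higher and 0 lower in the NRG1 line, with a median log2 difference of 0.61 against 0.00 over all genes tested (all genes, 5.86% higher, 4.91% lower). They ran from 0.26 for SPRED1 (limma-voom adjusted p = 0.0341) to 0.99 for SPRY4 (SE 0.17, limma-voom adjusted p = 1.06e-05), both feedback inhibitors of the pathway. The count of 12 higher was 11 with edgeR, 10 with DESeq2 and 10 to 12 when 1 library was left out. In the CDKN2A line 11 of 12 were higher, with a median of 1.14, led by the ERK phosphatase DUSP6 (2.94, SE 0.17, limma-voom adjusted p = 4.79e-24), where 29.4% of all genes were higher. In PIK3CA 9 of 12 were higher, led by SPRY4 (1.32, SE 0.15, limma-voom adjusted p = 7.18e-12), where 14% of all genes were higher. In NRF2 9 of 12 were lower and 0 higher, led by PHLDA1 (-1.28), where 11.2% of all genes were lower. In FGFR1 and in GFP 7 of 12 were lower and 0 higher, each time led by DUSP6 (-0.94 and -1.47), where 6.23% and 22.8% of all genes were lower. In FAT1 3 were higher and 5 lower, led by the transcription factor ETV5 (-1.49), where 25% of all genes were higher and 23.9% lower. With CSC 12 of 12 were higher, with BaP 9 and with NNK 9 (1 lower), led each time by the early response gene EGR1 (1.94, 1.98 and 2.30), where 27.2%, 26.4% and 25.9% of all genes were higher.

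For each list the leading gene was the one with the largest change among those past the threshold and averaging at least 10 reads. Of the other EGF-family ligands, 8 of 9 tested were higher in CDKN2A, with a median of 1.34, led by epiregulin (EREG, 2.79, SE 0.11, limma-voom adjusted p = 1.65e-32), where 29.4% of all genes were higher. In the NRG1 line 2 of 8 were higher, led by amphiregulin (AREG, 1.03, SE 0.22, limma-voom adjusted p = 0.000452), and in PIK3CA 1 of 8, which was HBEGF (0.89, SE 0.18, limma-voom adjusted p = 9.59e-05), where 5.86% and 14% of all genes were higher. In GFP 4 of 7 were lower (all genes, 22.8% lower), led by EREG (-1.80), which was also lower in NRF2 (-1.20) and FGFR1 (-0.61). With CSC 6 of 8 ligands were higher, with BaP 5 of 9 and with NNK 3 of 8, led by EREG (1.15, 0.82 and 0.63), where 27.2%, 26.4% and 25.9% of all genes were higher. BTC was lower with CSC (-0.59, limma-voom adjusted p = 0.0417, all genes 28.4% lower), while edgeR, DESeq2 and the GC and length correction called 0 lower.

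Among genes whose products release the ligands, couple to the receptors or remove them, the direction differed between lists and comparisons. Of all genes 5.86% were higher and 4.91% lower in the NRG1 line, and the counts of 0 or 1 gene in each direction there are near those shares. Of 12 adaptors and proximal signalling genes 1 was higher in the NRG1 line, SHC1 (0.37, SE 0.05, limma-voom adjusted p = 4.38e-07), which links ERBB receptors to the ERK pathway. Of 15 genes of receptor turnover and inhibition 1 was higher there and 1 lower, led by the ubiquitin ligase RNF41 (-0.30, SE 0.10, limma-voom adjusted p = 0.0378), while edgeR and DESeq2 called 0 lower. In CDKN2A 4 were higher and 6 lower, led by the ligase CBL (0.90, SE 0.07, limma-voom adjusted p = 3.66e-18), where 29.4% of all genes were higher and 28.3% lower. In NRF2 7 of the 15 were lower and 0 higher, where 11.2% of all genes were lower. There 4 of 12 adaptors and 4 of 6 sheddases were lower and 1 of each higher. With CSC, BaP and NNK 6, 8 and 8 of the 15 were lower and 2, 1 and 1 higher. Of all genes 28.4%, 25.1% and 25.8% were lower with these chemicals. After the GC and length correction 3, 2 and 0 of the 15 were lower. Of 6 sheddases 1 was lower in the NRG1 line, ADAM17 (-0.27, SE 0.07, limma-voom adjusted p = 0.00756), and 3 were lower with BaP and 3 with NNK, led by ADAM10 (-0.50 and -0.25), where 25.1% and 25.8% of all genes were lower. After the GC and length correction 1 sheddase was lower with BaP and 0 with NNK.

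**Figure D5:**
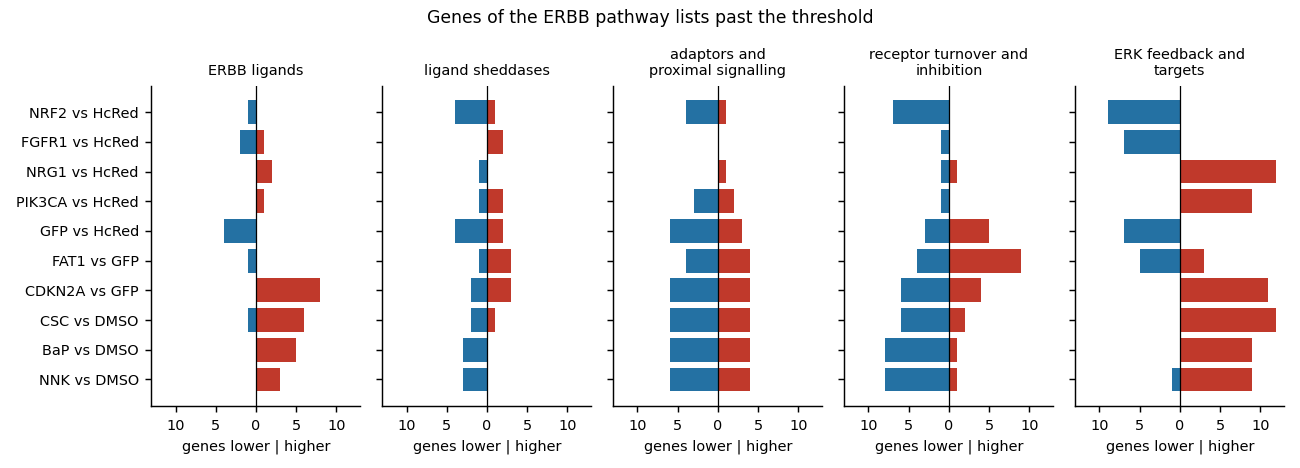
Number of genes in each of the 5 pathway lists that were higher (red, right) or lower (blue, left) at an adjusted p under 0.05 in each comparison over treatments or lines. The list of ERK feedback and targets has 12 genes higher in NRG1 against HcRed and 9 lower in NRF2 against HcRed.

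The genes whose level followed each member most closely were found from Pearson r over the 32 group means of log2 CPM, among 10061 genes that averaged at least 10 reads. The groups share lines and treatments, so these values are descriptions. EGFR was followed by TNFRSF12A (r = 0.883), ITPR1 (0.878) and PLEC (0.877), and ERBB2 by WDR81 (0.855), EEF1G (0.836) and TNFRSF1A (0.831). ERBB3 was followed by ST6GALNAC2 (0.892), OLFML2A (0.866) and PRRG4 (0.864). ERRFI1 was followed by the ligand EREG (0.888), RN7SL3 (0.885) and PLEC (0.883). For NRG1, over the 28 groups outside its line, SNORA63 (0.581), TUG1 (0.559) and KDELC1 (0.554) came closest.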

How the data were processed

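RNA of 95 AALE libraries was prepared by SFL and sequenced in 75-base single reads. Per the submitters' processing notes and the study's methods, the authors trimmed reads with Cutadapt 1.12, checked them with FastQC 0.11.5, aligned them to hg19 with STAR 2.5.2b, counted them per gene with featureCounts and deposited raw counts, 1 table per library. Samples were grouped from the labels. Counts with a mean above 1 in the fitted libraries were scaled by TMM (edgeR 4.0.16) and tested with limma-voom (limma 3.58.1, R 4.3.3), with Benjamini-Hochberg adjustment over all genes tested and a threshold of 0.05. Lines were compared over the treatments with treatment as a covariate, chemicals over the lines with line as a covariate, and both also within a single treatment or line. CPM were computed from TMM-scaled totals. The alternatives tried were DESeq2 1.42.0, its size factors alone, the quasi-likelihood test of edgeR, other filters, 1 fit of all libraries, a replicate block, a GC content and exon length correction (loess span 0.3) and leaving out each library. The 95% intervals are normal intervals from the SE. Leaving out the 8 libraries with high NRG1, alone or with the NRG1 line, was chosen after seeing the data. For the CSC response between lines the rest of the NRF2 line was then left out as well. The scripts were tested on simulated data.

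Besides the members and perturbed genes, the text names for each list and comparison the gene with the largest change past the threshold at a mean count of at least 10, the ends of 1 list's range, and the 3 genes most like each member. Members and lists were chosen with earlier results of these data known. Gene positions and exon lengths come from GENCODE v44lift37. The reads carry no molecular identifiers, so limits cover counting error only.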

Additional observations from a re-analysis of the deposited data

Results flagged for a closer look

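The response of EGFR to CSC differed between the 8 lines (F test of the chemical-by-line terms, limma-voom adjusted p = 0.00095). The log2 difference from DMSO was 0.20 in CDKN2A, 0.23 in NRF2, 0.33 in FGFR1, 0.38 in FAT1, 0.39 in GFP, 0.44 in NRG1, 0.52 in HcRed and 0.61 in PIK3CA. The response of EGFR to BaP differed as well (adjusted p = 0.000157), from -0.38 in NRF2, -0.20 in GFP, -0.17 in FAT1 and -0.10 in FGFR1 to 0.04 in CDKN2A, 0.11 in HcRed, 0.13 in NRG1 and 0.14 in PIK3CA.

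The response of ERRFI1 to CSC differed between the lines with adjusted p = 0.0264. It was 0.07 in GFP, 0.24 in FAT1 and 0.25 in NRF2, then 0.46 in FGFR1, 0.68 in PIK3CA, 0.76 in CDKN2A, 0.79 in NRG1 and 0.83 in HcRed. The call of ERRFI1 was lost in 3 of 47 fits that each left out 1 library (GFP with CSC replicate 1, GFP with DMSO replicate 3 or HcRed with DMSO replicate 1), with adjusted p from 0.0129 to 0.0972 over the 47 fits. It was also lost with the fit of all 95 libraries (adjusted p = 0.0587), with no filter on low counts (0.0866) and without the 8 libraries with high NRG1 (0.0609). That last fit also left out the whole NRF2 line, because all its libraries with CSC are among the 8.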

How the results depend on the processing

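The number of members past the threshold stayed within 1.5 times its main value under every alternative run for NRG1 (3), PIK3CA (3), GFP (4), FAT1 (2) and CDKN2A (5) against their controls, for CSC (4) and BaP (3) over the lines, and for BaP between lines (1). Such a count can hide a change of members. After the GC and length correction CSC lost ERBB2 (0.03, adjusted p = 0.661) and gained ERBB3 (-0.20, 0.00942). The same correction removed ERBB2 in CDKN2A (0.09, 0.33) and added ERRFI1 in FAT1 (0.21, 0.025). For NRF2 (1) it was 0 with DESeq2, 2 with the GC and length correction, and 0 without the 8 libraries with high NRG1. For FGFR1 (2) it was 1 with DESeq2, with the fit of all 95 libraries and without the 8 libraries. For NNK over the lines (4) it was 2 with the GC and length correction. For CSC between lines (2) it was 1 with the fit of all 95 libraries and with no filter on low counts. It was also 1 without the 8 libraries, in a fit that left out the whole NRF2 line too. Each time ERRFI1 was lost. For NNK between lines (0) edgeR gave 1. When 1 library was left out, the counts ran from 1 to 2 for NRF2, from 3 to 4 for GFP, from 1 to 3 for CSC between lines and from 0 to 1 for NNK between lines, and were 2 for FGFR1, 3 for NRG1, 3 for PIK3CA, 2 for FAT1, 5 for CDKN2A, 4 for CSC, 3 for BaP, 4 for NNK and 1 for BaP between lines. NRG1 with CSC over the lines turned to 0.10 without the NRG1 line and the 8 libraries, and NRG1 with CSC in CDKN2A (-0.97) ran from -1.64 to 0.061 when 1 library was left out, the latter without CDKN2A with DMSO replicate 3. Among calls within a single line or treatment, DESeq2 ended 30 of 53 and 12 of 44, and the GC and length correction 20 and 3. The causes were not tested.

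The labels do not say whether equal replicate numbers pair the libraries of different groups. In 0 of 52 comparisons were all correlations of same-numbered libraries above 0.1, and their mean ran from -0.03 to 0.12. With the replicate block the counts over treatments and over lines were the same (for example 3 for NRG1 and 4 for CSC), and 3 calls within a single line or treatment were lost. In 15 of 52 comparisons every library correlated best with its own number, which is a hint from the data and not from the design. Shallow libraries limit ERBB4, which could not be tested, and ERBB3.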
